A study of Mus musculus with 20 samples.

Results

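The genes of de novo lipogenesis, the synthesis of new fatty acids from carbohydrate, were examined in the livers of 20 mice. The 10 genes were chosen by symbol out of the 45306 genes of the table, and they are Srebf1, Slc25a1, Acly, Me1, Acaca, Fasn, Thrsp, Elovl6, Scd1 and Pnpla3. The choice was made with results of these data known, among them the low level of Scd1 in Sirt2-/- mice, so the difference between Sirt2-/- and Control, and the interaction that contains it, are described below without a test for these genes. RNA from 20 mg of liver was sequenced for every mouse separately, and the mice formed 4 groups of 5. Control mice were wild-type C57BL/6 mice without cold exposure, and CE mice were wild-type mice that spent 3 h of each day at 4 °C over 3 weeks. Sirt2-/- mice carried a knockout of Sirt2, a deacetylase that depends on NAD+, made on the C57BL/6 background by injecting a ribonucleoprotein aimed at exons 5 to 7 into fertilized eggs, and they received no cold exposure. Sirt2-/-/CE mice carried the same knockout and received the same cold exposure as CE mice. The mice were 5 weeks old at the start, the knockout was made in the germline and so is not confined to liver, and the sex, the number of knockout lines and the hour of sampling are not given in the sources used here.

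In hepatocytes, glucose is turned into pyruvate and then, in mitochondria, into citrate. Citrate leaves through a carrier in the inner membrane, is split in the cytosol to acetyl-CoA, and is built up by acetyl-CoA carboxylase and fatty acid synthase into palmitate, with NADPH as the reductant. Palmitate is then lengthened and desaturated before it enters triglycerides. Insulin raises the transcription of this set of genes through SREBP1c, a product of Srebf1 that is released from a membrane precursor, and glucose raises it through ChREBP, so the set is known to follow feeding and the time of day in liver.

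The libraries held 35499796 to 53917339 counts each, and levels are given as CPM, counts scaled to a common library size by the TMM method of edgeR. Sirt2 had 40.2 to 56.2 CPM in the 10 wild-type mice and 16.9 to 27.5 CPM in the 10 knockout mice, so no knockout mouse reached a wild-type mouse. Markers of hepatocytes were abundant, with 84580 to 159783 CPM summed over 5 genes in wild-type mice and 69240 to 158091 CPM in knockout mice. Of 6 adipocyte markers, none passed the filter on low counts 3 or 4 of them were at 0 in all mice of a group, and their sum was at most 1.01 CPM in any mouse. The sum over 5 pancreatic acinar markers was at most 1.34 CPM. Markers of Kupffer cells and leukocytes summed over 5 genes to 76.7 to 258 CPM in Control, 76.8 to 295 CPM in CE, 161 to 303 CPM in Sirt2-/- and 213 to 336 CPM in Sirt2-/-/CE. None of the 5 had an adjusted p under 0.05 in any comparison in edgeR, where at most 0.89% of all genes did. All 5 were higher in Sirt2-/- than in Control (median log2 fold change 0.37) and in Sirt2-/-/CE than in CE (0.77). In the latter, 2 had an unadjusted p under 0.05 in edgeR, against 6.09% of all genes. For CE against Control 3 were higher and 2 lower, and for Sirt2-/-/CE against Sirt2-/- 4 and 1. The part of these cells in the results below was not tested. In bulk tissue, fewer cells of a type and less RNA per cell cannot be told apart. The mice had free access to food and a cycle of light and dark, and whether mice of a group shared a litter or a cage is not given in the sources used here, so a p-value measures the spread between these mice.

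There were 4 libraries that stood apart in the expression of circadian clock genes. The clock score of a mouse was a difference of means of centred log2 CPM, that of Ciart, Dbp, Nr1d2, Per3 and Tef less that of Arntl, Clock and Npas2, and these sets peak at opposite times of day. It ran from 1.33 to 3.36 in Control. It was -4.52 in CE replicate 9, -5.72 and -6.48 in Sirt2-/- replicates 14 and 15, and -4.69 in Sirt2-/-/CE replicate 19. The other 11 mice of these groups lay between -0.81 and 2.42. Dbp had 71.6 to 99.0 CPM in Control and at most 66.8 CPM in any mouse of the other groups. Leaving out the 4 mice therefore does not remove the difference in clock genes from Control. Because lipogenic genes follow the time of day, the main fold changes of the 10 genes and the counts over the pathway list are given below with and without these 4 mice, a choice made after the data were seen, and the part of sampling time in them was not tested.

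The sequences upstream of the genes are shown first, and their part in the levels and relations below was not tested. RefSeq windows on GRCm38.p6 from 250 bases before to 50 bases after the transcription start were found for 9 of the 10 genes, in 12 windows, and none was found for Scd1. They were searched on both strands for CCAAT (the box of NF-Y, a partner of SREBP), CACGTG (an E-box, which USF and clock factors can bind), GGGCGG (the core of an Sp1 site) and TCACNCCAC (a form of the sterol regulatory element). CCAAT was present in 8 of the 12 windows against 37.4% of all 32851 windows, and GGGCGG in 6 of 12 against 35.7%. CACGTG was present in 1 of 12 windows, that of Slc25a1, against 7.15% of all windows. TCACNCCAC was present in 0 of 12 against 1.24% of all windows, which says only that these letters are not in these windows. Srebf1 has 3 windows and Me1 has 2, so windows are not genes. The windows of Acaca and Elovl6 held none of these sequences. That of Acaca (chr11:84195188-84195487) lies inside the annotated gene, which starts at 84129672. The window of Fasn is shown because it held the most CCAAT boxes, that of Thrsp because of its spread within groups (below), and that of Slc25a1 because it held the E-box. Capitals mark CCAAT or its reverse complement ATTGG and, in Slc25a1, CACGTG. In Fasn, 2 of the 3 boxes overlap as CCAATTGG. The windows lie at chr11:120824498-120824797 for Fasn, chr7:97417501-97417800 for Thrsp and chr16:17928170-17928469 for Slc25a1, all on the minus strand and read 5′ to 3′.
Fasn: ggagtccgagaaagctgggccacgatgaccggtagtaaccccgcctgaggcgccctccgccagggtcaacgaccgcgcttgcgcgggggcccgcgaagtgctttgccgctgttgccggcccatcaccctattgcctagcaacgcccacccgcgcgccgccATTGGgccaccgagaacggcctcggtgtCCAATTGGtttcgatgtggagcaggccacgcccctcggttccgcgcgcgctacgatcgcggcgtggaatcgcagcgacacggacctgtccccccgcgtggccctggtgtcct
Thrsp: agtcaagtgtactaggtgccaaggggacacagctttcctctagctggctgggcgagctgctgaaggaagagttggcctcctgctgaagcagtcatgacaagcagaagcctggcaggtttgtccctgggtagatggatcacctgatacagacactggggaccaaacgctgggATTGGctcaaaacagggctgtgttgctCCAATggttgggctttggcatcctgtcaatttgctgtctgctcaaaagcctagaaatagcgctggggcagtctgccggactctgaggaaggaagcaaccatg
Slc25a1: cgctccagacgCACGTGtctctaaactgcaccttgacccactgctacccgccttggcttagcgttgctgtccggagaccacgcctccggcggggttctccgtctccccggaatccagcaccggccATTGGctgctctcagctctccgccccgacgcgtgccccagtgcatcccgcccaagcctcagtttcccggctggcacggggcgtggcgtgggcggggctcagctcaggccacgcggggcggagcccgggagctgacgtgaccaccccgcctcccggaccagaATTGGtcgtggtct

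The level of a gene per length was taken from the authors' FPKM values. Scd1 was the most abundant of the 10 genes in all 4 groups, at a mean of 1103 ± 545 FPKM in Control (SD, n = 5 mice). Thrsp followed at 469 ± 76.4 FPKM, Slc25a1 at 115 ± 16.3, Srebf1 at 90.2 ± 27.3, Acly at 65.8 ± 15.2, Fasn at 54.8 ± 27.5 and Me1 at 39.5 ± 13.4 FPKM. Elovl6 had 17.99 ± 5.99 FPKM, Acaca 9.19 ± 2.25 FPKM and Pnpla3 0.142 ± 0.102 FPKM. From Slc25a1 down to Me1, the gap between neighbours in this order was smaller than the larger of their SDs. The order was the same in the other 3 groups except that Me1 stood above Fasn.

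**Figure D1:**
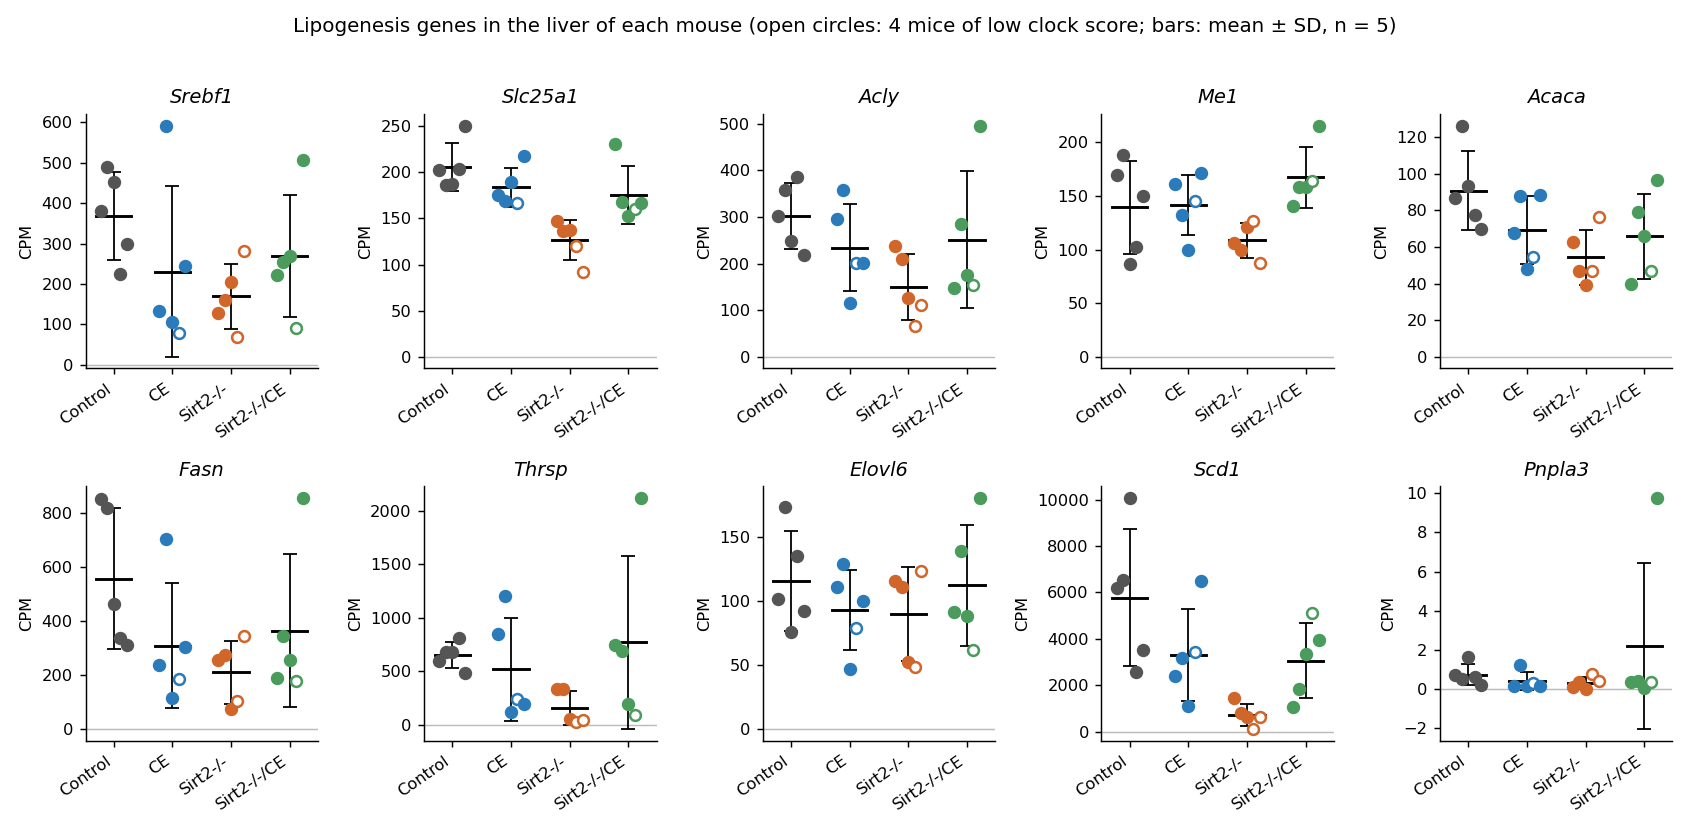
CPM of each of the 10 genes in each mouse, by group, with the mean and SD of the 5 mice. Open circles are the 4 mice of low clock score. All Sirt2-/- mice lay below all Control mice for Scd1, Thrsp and Slc25a1, and Sirt2-/-/CE replicate 20 was the highest mouse of its group for 8 of the 10 genes.

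Srebf1 (ENSMUSG00000020538, chromosome 11, 60199089 to 60222581, minus strand) encodes SREBP1a and SREBP1c, the membrane-bound precursors of the transcription factors that drive the set. It had 380.0, 489, 452, 224 and 299.5 CPM in the Control mice (replicates in order) and 134, 591, 107, 77.6 and 243 CPM in the CE mice. The Sirt2-/- mice had 129, 160.3, 206, 69.6 and 281 CPM, and the Sirt2-/-/CE mice had 221, 255, 269.7, 91.0 and 507 CPM. All groups overlapped, and the lowest mouse of CE, of Sirt2-/- and of Sirt2-/-/CE was in each case one of low clock score. In CE, 1 mouse of 5 (replicate 7) lay above the Control mean and the other 4 below it. The log2 fold change of Srebf1 was -0.68 for CE against Control (SE 0.49, edgeR adjusted p = 0.677), and -0.44 (SE 0.42, edgeR adjusted p = 0.74) without the 4 mice of low clock score. Leaving out CE replicate 7 moved it to -1.40. The fitted difference of Sirt2-/- from Control, given as a description, was -1.12 (SE 0.50) with all mice and -1.16 (SE 0.47) without the 4. Counting did not separate the isoforms, and 109 of the 5634 exon bases of Srebf1 are shared with Rai1 on the other strand.

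Slc25a1 (ENSMUSG00000003528, chromosome 16, 17925223 to 17928219, minus strand) encodes the mitochondrial citrate carrier, which exports the carbon for fatty acid synthesis. It varied little between mice, with a coefficient of variation of 11.4% to 17.9% in the 4 groups, and Me1 alone varied less, in the 2 knockout groups. It had 203, 187, 187, 204 and 250.3 CPM in Control and 176, 169, 189, 167 and 217.5 CPM in CE. The Sirt2-/- mice had 147, 136, 137, 119.7 and 92.0 CPM, and the Sirt2-/-/CE mice had 231, 168, 152, 160.2 and 167 CPM. Every Sirt2-/- mouse was below every mouse of the other 3 groups, and the 2 mice of low clock score were the lowest of them. The fitted level in Sirt2-/- was 1.63-fold below Control (log2 fold change -0.70, SE 0.14), and the log2 fold change was -0.55 (SE 0.15) without the 4 mice. Sirt2-/-/CE lay above Sirt2-/- by a log2 fold change of 0.47 (SE 0.14, edgeR adjusted p = 0.503), all 5 mice being above the Sirt2-/- mean, and by 0.34 (SE 0.15, edgeR adjusted p = 0.835) without the 4 mice. Between Sirt2-/-/CE and CE the log2 fold change was -0.06 (95% interval -0.36 to 0.24, edgeR adjusted p = 0.971), 0.020 with scaling by library size only, and -0.10 without the 4 mice.

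Acly (ENSMUSG00000020917, chromosome 11, 100476353 to 100528000, minus strand) encodes ATP citrate lyase, which makes acetyl-CoA from the exported citrate. It ran from 219 to 385 CPM in Control (median 301), from 116 to 358 in CE (median 202), from 65.95 to 238 in Sirt2-/- (median 126) and from 147 to 496 in Sirt2-/-/CE (median 175). All groups overlapped. Its fitted difference between Sirt2-/- and Control was -1.01 (SE 0.37) and shrank to -0.66 (SE 0.40) without the 4 mice. Against Sirt2-/-, Sirt2-/-/CE had 0.75 (SE 0.37, edgeR adjusted p = 0.696), and 0.51 (SE 0.41, edgeR adjusted p = 0.84) without them. This difference ran from 0.35 to 0.98 when single mice were left out. Between Sirt2-/-/CE and CE it was 0.10 (95% interval -0.67 to 0.87, edgeR adjusted p = 0.985), and 0.16 without the 4 mice.

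Me1 (ENSMUSG00000032418, chromosome 9, 86581371 to 86695953, minus strand) encodes cytosolic malic enzyme, a source of NADPH. It had 169, 188, 86.8, 102 and 149.9 CPM in Control and 161, 132, 99.98, 145 and 171 CPM in CE. Among knockout mice, those of Sirt2-/- had 106, 100.002, 121, 127 and 87.9 CPM, and the Sirt2-/-/CE mice had 141, 158, 158, 164 and 215 CPM. The Sirt2-/- and Sirt2-/-/CE mice did not overlap, whereas Sirt2-/- lay within the range of Control. The log2 fold change of Sirt2-/-/CE against Sirt2-/- was 0.62 (SE 0.20, edgeR adjusted p = 0.543), and 0.60 (SE 0.26, edgeR adjusted p = 0.835) without the 4 mice. For CE against Control it was 0.03 (95% interval -0.38 to 0.44, edgeR adjusted p = 0.984), -0.0042 with scaling by library size only, and again 0.03 without the 4 mice. Pseudogenes match stretches of Me1 (Gm7049 over 1716 bases at 98.4% identity), as Gm11295 matches Elovl6 (805 bases, 97.4%). Acaca shares stretches with 75 other annotated genes, of which 49 are in the table, and the longest is with Gm5182 (6118 bases, 99.2%). How the counting treated such reads is not given in the sources used here.

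Acaca (ENSMUSG00000020532, chromosome 11, 84129672 to 84401651, plus strand) encodes acetyl-CoA carboxylase 1, which makes malonyl-CoA and commits acetyl-CoA to synthesis. It ran from 69.9 to 126 CPM in Control (median 86.6), from 47.9 to 88.3 in CE (median 67.7), from 39.5 to 76.2 in Sirt2-/- (median 46.8) and from 40.0 to 96.8 in Sirt2-/-/CE (median 65.9). All 5 CE mice and all 5 Sirt2-/- mice were below the Control mean, although the ranges overlapped. The log2 fold change was -0.39 for CE against Control (SE 0.25, edgeR adjusted p = 0.626), and -0.30 (SE 0.25, edgeR adjusted p = 0.689) without the 4 mice. The fitted difference of Sirt2-/- from Control was -0.74 (SE 0.25), and -0.87 (SE 0.28) without them. Between the cold-exposed genotypes the log2 fold change was -0.08 (95% interval -0.59 to 0.44, edgeR adjusted p = 0.984), 0.022 with scaling by library size only, and again -0.08 without the 4 mice.

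Fasn (ENSMUSG00000025153, chromosome 11, 120805846 to 120824547, minus strand) encodes fatty acid synthase, which assembles palmitate. It had 852, 818, 464, 337 and 311 CPM in Control and 238, 704, 113, 184 and 302 CPM in CE. The Sirt2-/- mice had 256, 275, 73.0, 103 and 344 CPM, and the Sirt2-/-/CE mice had 189.7, 343, 256, 178 and 856 CPM. Of the CE mice, 4 were below the lowest Control mouse and replicate 7 lay between Control values, and of the Sirt2-/-/CE mice, replicate 20 was above the highest Control mouse and the next, replicate 17, was near the lower ones. The log2 fold change of CE against Control was -0.85 (SE 0.52, edgeR adjusted p = 0.615), and -0.70 (SE 0.55, edgeR adjusted p = 0.663) without the 4 mice. Leaving out CE replicate 7 gave -1.42. Between Sirt2-/-/CE and CE the log2 fold change was 0.24 (95% interval -0.84 to 1.33, edgeR adjusted p = 0.971), 0.25 without the 4 mice, and it turned to -0.36 without Sirt2-/-/CE replicate 20. The fitted difference of Sirt2-/- from Control was -1.41 (SE 0.53), and -1.47 (SE 0.63) without the 4 mice.

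Thrsp (ENSMUSG00000035686, chromosome 7, 97412938 to 97417730, minus strand) encodes Spot 14, a small protein induced by thyroid hormone and carbohydrate that acts on acetyl-CoA carboxylase. It had 600.2, 678, 678, 812 and 485 CPM in Control, the narrowest group, and 845, 1204, 117, 244 and 194 CPM in CE. Levels in the Sirt2-/- mice were 334, 334, 55.4, 28.1 and 48.9 CPM, and the Sirt2-/-/CE mice had 745, 694, 198, 96.9 and 2120.1 CPM. In each of the last 3 groups the mice divided into higher and lower ones, with the highest 10.3, 11.9 and 21.9 times the lowest, against 1.68 times in Control. The mice of low clock score were among the lower ones, as were CE replicates 8 and 10, Sirt2-/- replicate 13 and Sirt2-/-/CE replicate 18, whose clock scores were not low. The fitted level in Sirt2-/- was 4.06-fold below Control (log2 fold change -2.02, SE 0.80), and the log2 fold change was -1.43 (SE 0.78) without the 4 mice. Sirt2-/-/CE against Sirt2-/- gave 2.27 (SE 0.81, edgeR adjusted p = 0.56), 1.94 (SE 0.82, edgeR adjusted p = 0.835) without the 4 mice, and 1.45 without Sirt2-/-/CE replicate 20. For CE against Control it was -0.32 (95% interval -1.93 to 1.29, edgeR adjusted p = 0.945), and -0.13 without the 4 mice. Its sign turned with the clock score as a covariate (below).

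Elovl6 (ENSMUSG00000041220, chromosome 3, 129532355 to 129638495, plus strand) encodes the elongase that lengthens palmitate to stearate. It ran from 76.3 to 174 CPM in Control (median 102), from 47.2 to 129 in CE (median 100.03), from 48.7 to 124 in Sirt2-/- (median 111) and from 62.2 to 181 in Sirt2-/-/CE (median 91.8). The groups overlapped widely. Its fitted difference between Sirt2-/- and Control, -0.36 (SE 0.33), was with that of Me1 the smallest among the 10 genes, and it was -0.32 (SE 0.36) without the 4 mice. When single mice were left out it ran from -0.50 to -0.17. Between the cold-exposed genotypes the log2 fold change was 0.27 (95% interval -0.42 to 0.96, edgeR adjusted p = 0.964), and 0.34 (SE 0.34, edgeR adjusted p = 0.87) without the 4 mice. It ran from 0.029 to 0.42 when single mice were left out, and its sign turned under limma voom (below).

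Scd1 (ENSMUSG00000037071, chromosome 19, 44394455 to 44407879, minus strand) encodes stearoyl-CoA desaturase 1, which makes oleate and palmitoleate. It had 6198, 6543, 10069, 2555 and 3518 CPM in Control and 2402, 3174, 1096, 3445 and 6472 CPM in CE. The Sirt2-/- mice had 1468, 795, 637, 119 and 618 CPM, and the Sirt2-/-/CE mice had 1077, 1831, 3343, 5124 and 3961 CPM. The group means were 5777 ± 2944 in Control, 3318 ± 1985 in CE, 727 ± 486 in Sirt2-/- and 3067 ± 1628 CPM in Sirt2-/-/CE (SD, n = 5). Every Sirt2-/- mouse was below every Control mouse, and the lowest, replicate 14, was of low clock score. The other mouse of low score in that group, replicate 15, was close to replicate 13, and Sirt2-/-/CE replicate 19, also of low score, was the highest of its group. The fitted level in Sirt2-/- was 7.94-fold below Control (log2 fold change -2.99, SE 0.58), and the log2 fold change was -2.58 (SE 0.61) without the 4 mice. With cold exposure, the genotypes did not differ beyond the spread between mice, with a log2 fold change of -0.11 for Sirt2-/-/CE against CE (95% interval -1.23 to 1.00, edgeR adjusted p = 0.987), and -0.39 (SE 0.52, edgeR adjusted p = 0.902) without the 4 mice. Sirt2-/-/CE was 4.22-fold above Sirt2-/- (log2 fold change 2.08, SE 0.56, edgeR adjusted p = 0.503), all 5 mice being above the Sirt2-/- mean but the lowest below the highest Sirt2-/- mouse, and the log2 fold change was 1.39 (SE 0.59, edgeR adjusted p = 0.835) without the 4 mice. CE lay below Control by a log2 fold change of -0.80 (SE 0.54, edgeR adjusted p = 0.653), with 4 of 5 mice below the Control mean, and again by -0.80 (SE 0.50, edgeR adjusted p = 0.567) without the 4 mice. This value ran from -1.19 to -0.51 when single mice were left out. Scd2 matches Scd1 over 623 bases at 95.5% identity and had at most 30.2 CPM in any mouse.

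Pnpla3 (ENSMUSG00000041653, chromosome 15, 84167837 to 84187236, plus strand) encodes adiponutrin, a lipid droplet protein whose gene is induced by SREBP1c on feeding. It was near the limit of detection, with 0.699, 0.486, 1.65, 0.599 and 0.224 CPM in Control and 0.169, 1.21, 0.17, 0.331 and 0.148 CPM in CE. In the Sirt2-/- mice it had 0.0908, 0.333, 0, 0.774 and 0.406 CPM, where a count of 0 allows up to 0.082 CPM (3 counts, counting error only), and the Sirt2-/-/CE mice had 0.372, 0.387, 0.072, 0.362 and 9.76 CPM. The last value, from Sirt2-/-/CE replicate 20, rests on 404 counts, where no other mouse had more than 67. The log2 fold change was 2.43 for Sirt2-/-/CE against CE (SE 1.09, edgeR adjusted p = 0.757), 2.60 (SE 1.23, edgeR adjusted p = 0.638) without the 4 mice of low clock score, and -0.45 without Sirt2-/-/CE replicate 20. Against Sirt2-/- it was 2.76 (SE 1.1, edgeR adjusted p = 0.598), 4.18 (SE 1.53, edgeR adjusted p = 0.835) without the 4 mice, and -0.11 without replicate 20. In the description of Sirt2-/- against Control it was -1.18 (SE 1.08), and -2.34 (SE 1.43) without the 4 mice.

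**Figure D2:**
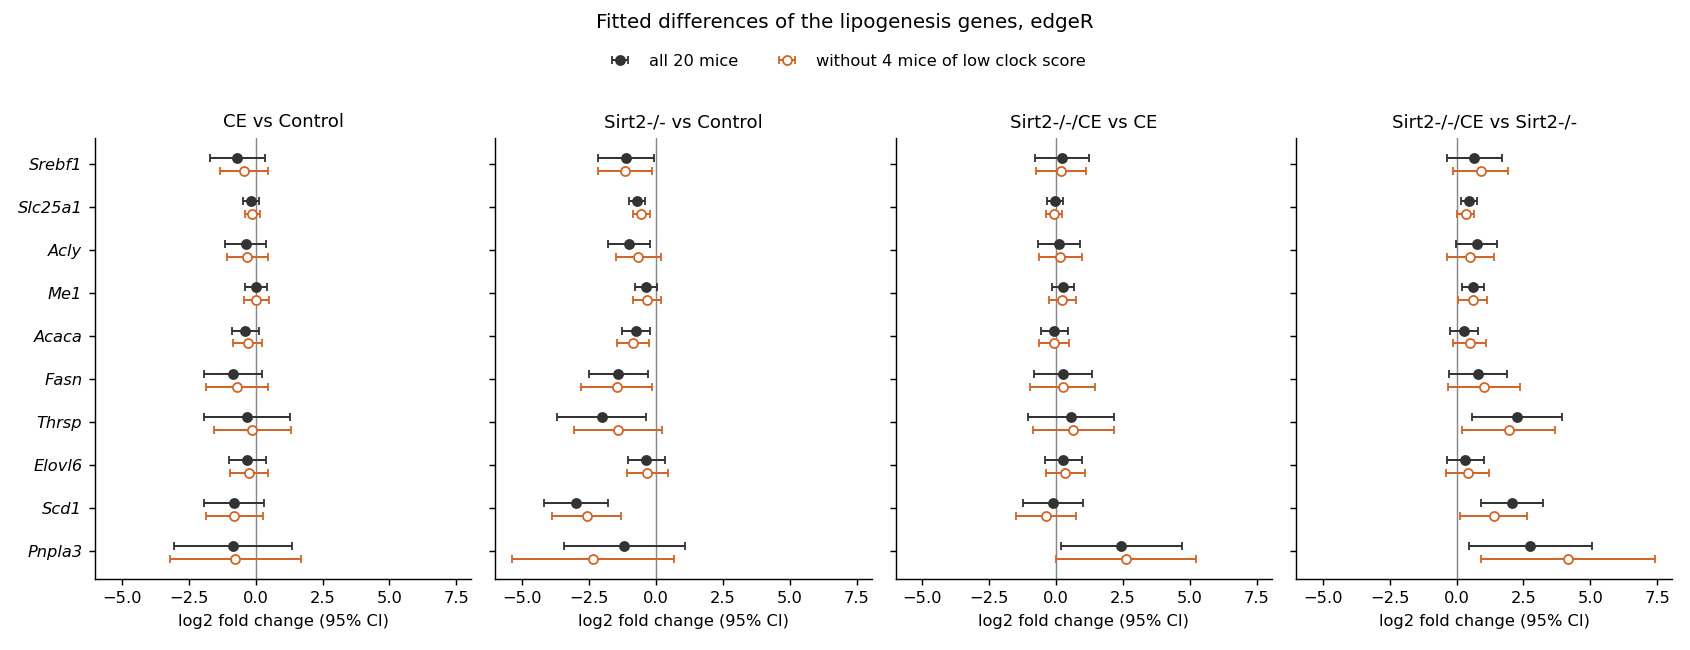
Fitted log2 fold changes of the 10 genes in 4 comparisons from edgeR, with 95% confidence intervals, for all 20 mice (filled) and without the 4 mice of low clock score (open). All 10 genes were below 0 for Sirt2-/- against Control and above 0 for Sirt2-/-/CE against Sirt2-/-, and 9 were below 0 for CE against Control. The intervals of Pnpla3 and Thrsp were the widest.

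The comparison of Sirt2-/-/CE with CE asked what Sirt2 loss did in cold-exposed liver, and it shares no mice with the comparison that was known when the genes were chosen. The 10 genes were spread around 0, with 7 above and 3 below (9 and 1 with scaling by library size only, but 2 and 8 under limma voom), a median log2 fold change of 0.23 and a range from -0.11 to 2.43, where the median of all 15616 genes tested was 0.02. Of the 10, 0 passed an adjusted p under 0.05 in edgeR's quasi-likelihood test, in which 0.0128% of all genes were called, and 0 passed in DESeq2 and in limma voom. At an unadjusted p under 0.05 there was 1, Pnpla3, against 6.09% of all genes. Without the 4 mice, 0 of 10 were called in edgeR, 0 had an unadjusted p under 0.05, and the median was 0.21. The 95% interval of the log2 fold change reached from -1.23 to 1.33 at most for the genes other than Thrsp and Pnpla3, so differences beyond these bounds lie outside the intervals of these 8 genes.

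The comparison of CE with Control asked what cold exposure did in wild-type liver, and it shares the Control mice with the known comparison. Of the 10 genes, 9 were lower in CE and 1, Me1, was higher (all 10 lower with scaling by library size only or under limma voom), with a median log2 fold change of -0.38 (-0.01 over all genes tested). In edgeR, 0 of 10 were called (0.0064% of all genes) and 0 of 10 had an unadjusted p under 0.05 (10.7% of all genes), and DESeq2 and limma voom called 0. The lowest adjusted p in edgeR was 0.615, for Fasn. Without the 4 mice the median was -0.30 and the lowest edgeR adjusted p was 0.567.

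The comparison of Sirt2-/-/CE with Sirt2-/- asked what cold exposure did in knockout liver. It shares the Sirt2-/- mice, so that a low value there raises the difference here, and its counts are no separate support. All 10 genes were higher in Sirt2-/-/CE (9 under limma voom, where Elovl6 was lower), with a median log2 fold change of 0.71 (0.33 under limma voom, and 0.01 over all genes tested), and 0 of 10 passed an adjusted p under 0.05 in edgeR, where 0.0% of all genes did. Neither DESeq2 nor limma voom called any of the 10. At an unadjusted p under 0.05 there were 5 of 10, namely Scd1, Slc25a1, Me1, Thrsp and Pnpla3, against 7.25% of all genes. Me1 and Slc25a1 did not overlap between the groups, as was the case on the higher side for 0.435% of all genes. Without the 4 mice, all 10 remained above 0 with a median of 0.75.

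Between Sirt2-/- and Control, given as a description, the median log2 fold change of the 10 genes was -1.07, with a range from -2.99 to -0.36, where the median of all genes tested was 0.02. Scd1 and Slc25a1 were among the 139 genes called in edgeR, which were 0.89% of all genes, 0.506% on the lower side, and nothing is read from their calls, since this comparison was known when the genes were chosen. Scd1, Thrsp and Slc25a1 did not overlap, as 2.16% of all genes did on the lower side. Without the 4 mice of low clock score, or with the clock score as a covariate, 0 of the 10 were below the threshold, as were 0.0% of all genes, and all 10 stayed below 0. The median of the 10 was -1.01 without the 4 mice and -0.79 with the covariate. When libraries were scaled by size only, the median of all genes in this comparison moved from 0.02 to 0.16. The difference of the genotype effects with and without cold was above 0 for all 10 genes, from 0.60 for Me1 to 2.88 for Scd1 and 3.60 for Pnpla3, the last being 0.73 without Sirt2-/-/CE replicate 20. All 10 were above 0 without the 4 mice as well, and Scd1 had 2.19. Targets of PPAR-alpha, which drives fatty acid oxidation in fasting, had 437 to 1086 CPM summed over 5 genes in Control, 542 to 1350 in CE, 1959 to 4217 in Sirt2-/- and 1060 to 2500.5 in Sirt2-/-/CE. Of the 5, 1 was called in edgeR between Sirt2-/- and Control, Cyp4a14, which had 1285 to 3116 CPM in Sirt2-/-. Genes of the fasting response summed over 9 genes overlapped between these groups, with 3574 to 7105 CPM in Control and 2977 to 8524 CPM in Sirt2-/-. The part of either set in the lipogenic values was not tested.

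**Figure D3:**
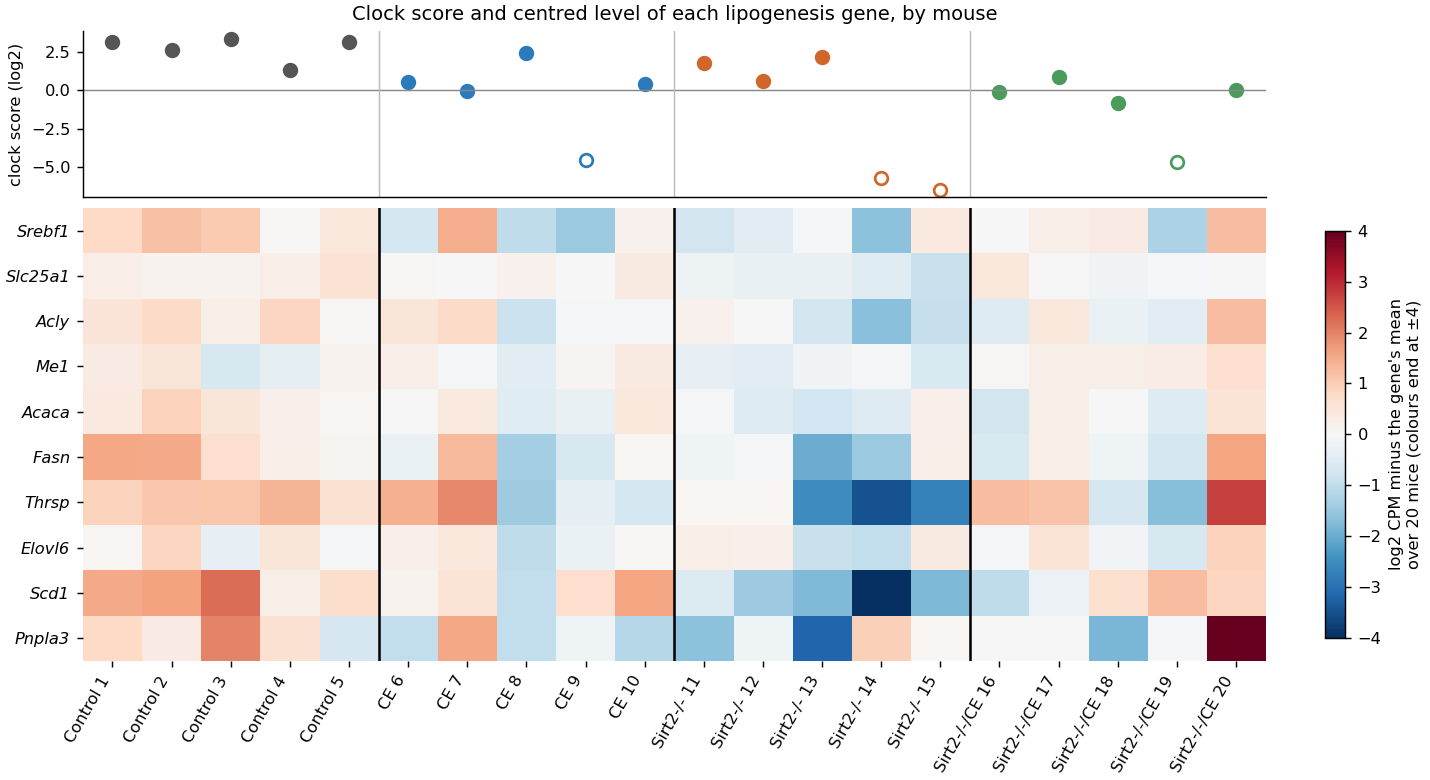
Upper panel, clock score of each of the 20 mice. Lower panel, level of each gene in each mouse as log2 CPM minus its mean over all mice, with colours ending at 4 on either side. Sirt2-/- replicates 13 to 15 are low for Thrsp, replicates 12 to 15 for Scd1, and Sirt2-/-/CE replicate 20 is high for most genes.

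Within groups, many of the genes varied together, but Slc25a1 did not follow the rest. After the group mean was removed from the log2 CPM, 37 of the 45 pairs of the 10 genes had a correlation above 0 across the 20 mice, with a median r of 0.35 and a range from -0.45 to 0.87. The highest were Acly with Thrsp (r = 0.87) and Fasn with Acaca (r = 0.84). Slc25a1 had r below 0 with 7 of the other 9 genes, and r of Me1 was 0.02 to 0.29. The 20 mice share the scaling of their libraries, so these values are a description. Srebf1 was then compared with the other 9 genes. Fasn followed it with a Pearson r of 0.72 (permutation within groups, p = 0.0016, adjusted p = 0.0448 over 28 relations) and a Spearman rho of 0.67 (permutation p = 0.00363, adjusted p = 0.0508). Acaca followed it with r = 0.68 (permutation p = 0.00324, adjusted p = 0.0454) and rho = 0.72 (permutation p = 0.00178, adjusted p = 0.0498). Without the 2 mice farthest from the median of Srebf1, r was 0.71 for Fasn and 0.67 for Acaca. Without the 4 mice of low clock score, r was 0.68 for Fasn (permutation p = 0.0133, adjusted p = 0.112) and 0.61 for Acaca (permutation p = 0.0287, adjusted p = 0.161), so neither passed the adjustment in the 16 mice, and r for Fasn was 0.47 when the 2 mice farthest from the median of Srebf1 were also left out. Elovl6 (r = 0.58, permutation p = 0.0159, adjusted p = 0.112) and Acly (r = 0.51, permutation p = 0.048, adjusted p = 0.192) did not pass it with all mice, nor did Thrsp (r = 0.50, permutation p = 0.0622, adjusted p = 0.197) or Pnpla3 (r = 0.31, permutation p = 0.225, adjusted p = 0.386). Scd1 (r = 0.35, permutation p = 0.171), Me1 (r = 0.10, permutation p = 0.669) and Slc25a1 (r = -0.14, permutation p = 0.571) did not pass it either. In the 16 mice, however, r was 0.57 for Scd1 (permutation p = 0.0703, adjusted p = 0.197; rho = 0.61, permutation p = 0.0351, adjusted p = 0.164), close to that of Acaca, and it was 0.35 for Me1 and -0.35 for Slc25a1 (permutation p = 0.242 and 0.214). Pnpla3 had 0.54 there (permutation p = 0.0379, adjusted p = 0.177), Acly 0.48, Thrsp 0.36 and Elovl6 0.38 (permutation p = 0.155, 0.332 and 0.248), and when the 2 farthest mice were also left out r was 0.061 for Elovl6, 0.18 for Acly, -0.079 for Thrsp and 0.68 for Scd1. In the same mice, the clock score was tested against each of the 10 genes, and none passed, with r from -0.55 for Elovl6 to 0.13 for Slc25a1 (permutation p = 0.0682 and 0.658, adjusted p = 0.197 and 0.694).

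**Figure D4:**
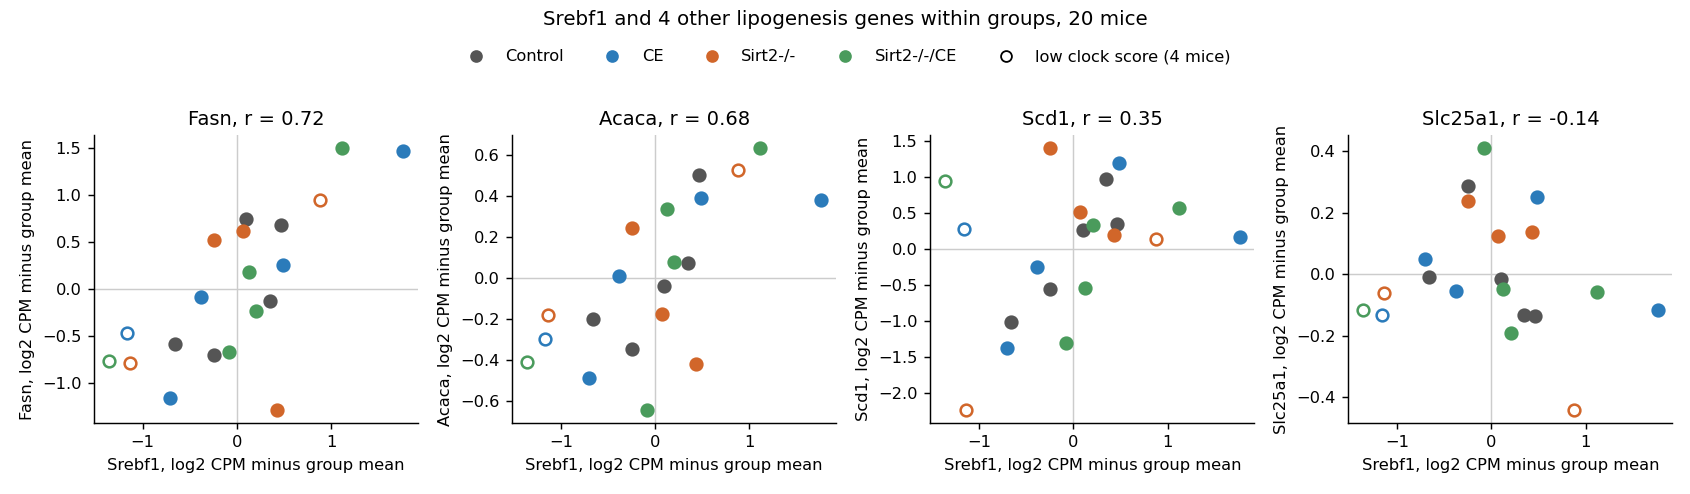
Log2 CPM of Fasn, Acaca, Scd1 and Slc25a1 against that of Srebf1 in 20 mice, each after subtraction of the group mean. Open circles are the 4 mice of low clock score. Fasn and Acaca rise along Srebf1 (r = 0.72 and 0.68), and Slc25a1 does not (r = -0.14).

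Over all 20 mice without removal of group means, the genes most like each of 4 members among 10591 genes whose mean level was 1 FPKM or more were sought by the Pearson r of log2 CPM. For Fasn they were Acaca (r = 0.88), Elovl6 (0.81) and Pklr (0.80). For Srebf1 they were Cnn3 (r = 0.81), Fasn (0.80) and Akr1d1 (0.79). Scd1 stood nearest to Ugt1a5, 1810008I18Rik and Sc5d, with r = 0.89 for all 3, and none of the other 9 genes was among these. For Pnpla3 they were Gm10233 (r = 0.80), Khk (0.77) and H2-Q6 (0.71), a likeness that includes the single high mouse.

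A list of 49 further genes of the pathway, of which all but Pnpla5 passed the filter, was read beside the 10. Between Sirt2-/- and Control, 36 of the 48 were lower and 12 higher, with a median log2 fold change of -0.31, and 1 was called (0.89% of all genes). The list was drawn up with results of this comparison known, so its counts here are no independent evidence. When the 4 mice were left out 34 were lower, the median was -0.14, and none was called, as was none of all genes. The gene called was Acss2, cytosolic acetyl-CoA synthetase, which makes acetyl-CoA from acetate. Acss2 had 175, 186, 167, 187 and 214 CPM in Control and 80.3, 65.9, 91.2, 42.0 and 46.2 CPM in Sirt2-/-. It was lower in 5 of 5 mice with no overlap, as were 2.16% of all genes, and its log2 fold change was -1.51 (SE 0.28, edgeR adjusted p = 0.0271). The adjusted p was 0.0531 and 0.064 without Control replicates 1 and 2, 0.0581, 0.0769 and 0.0968 without Sirt2-/- replicates 12, 14 and 15, and 0.321 (log2 fold change -1.23) without the 4 mice of low clock score, all in edgeR. At an unadjusted p under 0.05 there were 16 of the 48, 15 of them lower, against 14.9% of all genes, and without the 4 mice there were 10, against 7.92% of all genes. Next in p were Acacb, the mitochondrial carboxylase that limits fatty acid oxidation (log2 fold change -1.43, edgeR adjusted p = 0.0518), and Acsl5, an acyl-CoA synthetase (-0.77, edgeR adjusted p = 0.0584). Aacs, acetoacetyl-CoA synthetase, which uses ketone bodies for lipid synthesis, had -2.34 (edgeR adjusted p = 0.0584), and Pklr, the liver pyruvate kinase and a target of ChREBP, had -1.25 (edgeR adjusted p = 0.0684). Of the genes of acetyl-CoA and NADPH supply, 4 of 5 were below 0 and 4 had an unadjusted p under 0.05 (5 and 2 without the 4 mice). Of those of elongation and desaturation, 6 of 9 were below 0 and 3 had such a p, all 3 lower. Of the same 9, 6 and 3 were so without the 4 mice, but then 1 of the 3, Elovl2, was above 0 (log2 fold change 0.39). Of those of esterification and activation, 7 of 8 were below 0 and 1 had such a p (5 and 1 without the 4 mice), and of the transcription factors and coactivators, 5 of 9 and 2 (5 and 1). Of SREBP processing and relatives, 4 of 6 were below 0 and 2 had such a p, 1 of them higher (3 and 1 without the 4 mice). In the same order, the insulin signal gave 3 of 4 and 1 (3 and 0), and glucose entry 2 of 2 and 1 (2 and 1). The carboxylase and its regulators gave 4 of 4 and 2 (4 and 1), and the patatin-like relative 1 of 1 and 0 (1 and 0). Differences between the roles were not tested.

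In the other comparisons 0 of the 48 genes were called in edgeR. Between CE and Control 28 genes lay below 0 and 20 above it (26 and 22 without the 4 mice, but 22 and 26 with the clock score as a covariate). An unadjusted p under 0.05 was reached by 7 of them, with 10.7% of all genes, and by 7 without the 4 mice. DESeq2 called 3 (Pparg, Pklr and Insig2) and 1.21% of all genes, and limma voom 5 (these with Aacs and Elovl1) and 3.46% of all genes. The lowest p were those of Pparg, a factor of lipid storage (log2 fold change -1.24, SE 0.28, edgeR adjusted p = 0.157, and -1.43 with 0.0133 without Control replicate 4), of Pklr (-1.22, SE 0.33, edgeR adjusted p = 0.193) and of Insig2 (1.46, SE 0.44, edgeR adjusted p = 0.226), which encodes a retention protein for SREBP in the endoplasmic reticulum and was highest in mice of low clock score, CE replicate 9 at 366 CPM and Sirt2-/-/CE replicate 19 at 402 CPM. Without the 4 mice Insig2 had a log2 fold change of 0.96. For Sirt2-/-/CE against Sirt2-/-, 39 of 48 were higher and 8 had an unadjusted p under 0.05 (7.25% of all genes), and without the 4 mice 30 were higher and 8 had such a p (5.34% of all genes). The lowest p were those of Acsl5 (log2 fold change 0.70, edgeR adjusted p = 0.503), Tecr, an enzyme of fatty acid elongation (0.59, edgeR adjusted p = 0.503), and Acss2 (0.90, edgeR adjusted p = 0.53). For Sirt2-/-/CE against CE, 26 genes lay above 0 and 22 below it (22 and 26 without the 4 mice, 35 and 13 with scaling by library size only, 15 and 33 under limma voom), and none reached an unadjusted p under 0.05, with or without the 4 mice, the lowest p being those of Irs2 (log2 fold change -0.94), Nr1h3 (0.17) and Scd2 (-0.60), each with an edgeR adjusted p of 0.935, a value that other genes of the list share. In the interaction, 34 were above 0 and 9 had an unadjusted p under 0.05 (8.34% of all genes), or 30 and 6 (6.43% of all genes) without the 4 mice, led by Acsl5 (0.99), Pklr (1.62) and Aacs (2.65), with edgeR adjusted p of 0.349, 0.375 and 0.395. DESeq2 and limma voom called 0 of the 48 in these last 3 tests. The interaction contains the comparison known when the list was drawn up, and Sirt2-/-/CE against Sirt2-/- shares its Sirt2-/- mice. Their counts are therefore no separate support.

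**Figure D5:**
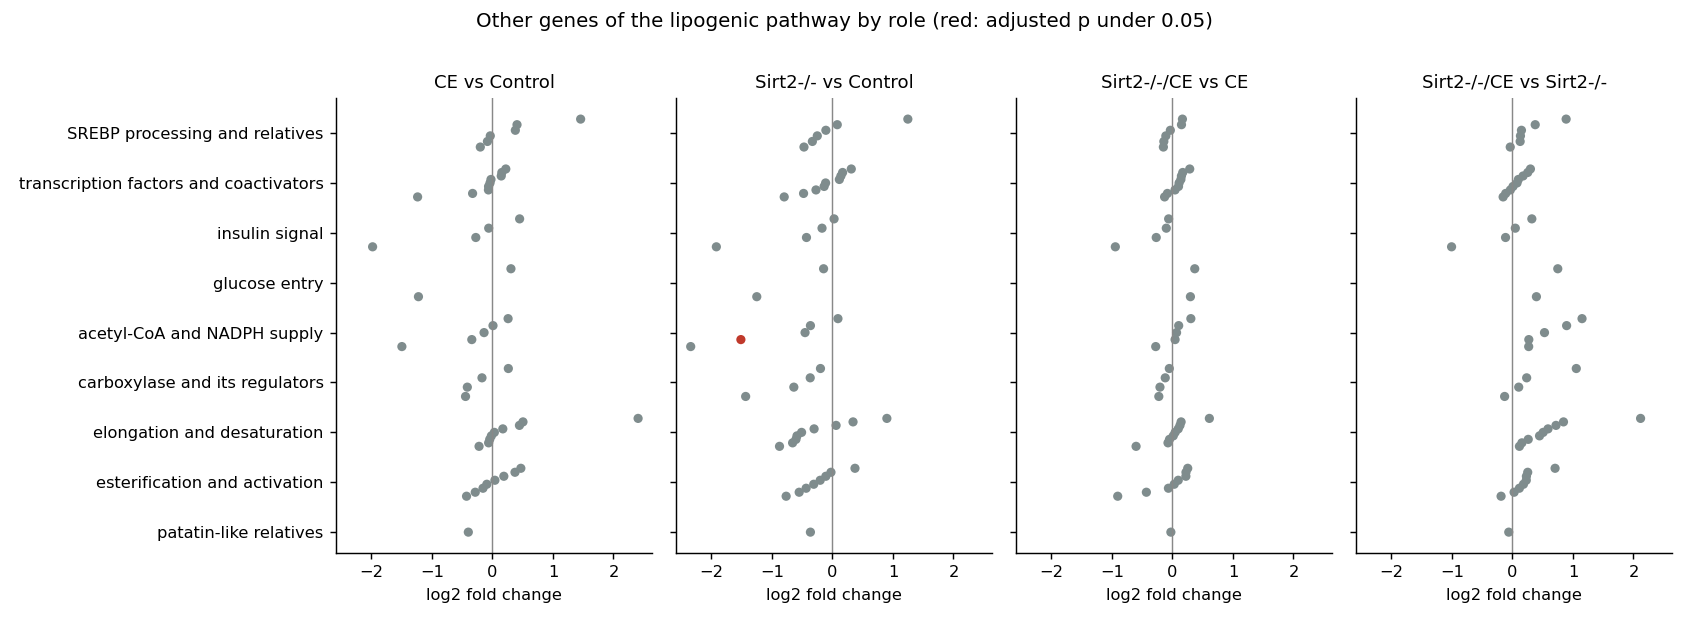
Log2 fold changes of the 48 tested pathway genes outside the 10, by role, in 4 comparisons from edgeR, with 1 point per gene. The red point is Acss2, the only one with an adjusted p under 0.05, and the points of Sirt2-/-/CE against CE lie between -0.94 and 0.61.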

How the data were processed

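Liver RNA enriched with oligo(dT) was sequenced on an Illumina NovaSeq, with 1 library for each of 20 mice. The authors deposited 1 table with whole-number read counts per gene and mouse. Beside the counts, the authors deposited FPKM values, which divide by gene length and library depth. The submitters' processing notes name the build mm10, and the aligner, the counting tool and the strand setting are not given in the sources used here. Reads of overlapping genes, and of near-identical copies, may therefore be assigned in ways that cannot be checked. A total of 9 lines without a gene were left out.

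The members and all gene lists were chosen with earlier results of these data known. Counts were filtered with filterByExpr (minimum count 10, minimum total 15), which kept 15616 genes and all 10 members, scaled by TMM (factors 0.8705 to 1.146), and tested with the two-sided quasi-likelihood test of edgeR 4.0.16 in its earlier form, over all 20 libraries (common dispersion 0.147). The Benjamini-Hochberg adjustment ran over the whole filtered table, with a threshold of 0.05. Alternatives were DESeq2 1.42.0, limma 3.58.1 (voom), other scalings and filters, a clock score covariate, the 2 groups alone, and leaving out mice. Intervals of log2 fold changes are at 95%. Correlations used log2 CPM centred on group means and 100000 permutations of mice within groups (two-sided, scipy 1.17.1). For the clock score they were run in 16 mice only, not in all 20 as planned, because 4 mice formed a cluster of their own. Named were Sirt2, the members, each pathway gene called in any comparison and the 3 of lowest p in each, and the 3 genes most like Scd1, Fasn, Srebf1 and Pnpla3. Genes that DESeq2, limma voom or another alternative called in addition, and Aacs, Pklr, Elovl2 and Cyp4a14 in the comparison of Sirt2-/- with Control, were named after their values were seen. Locations are from GENCODE on GRCm38, promoter windows from RefSeq on GRCm38.p6, and near-identical stretches from BLAST+ 2.17.0 (at least 95% identity over 150 bases). The fits were tested on simulated data. The depth of 35499796 to 53917339 counts per library sets the precision of low genes, of which Pnpla3 is the only member.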

Additional observations from a re-analysis of the deposited data

Results flagged for a closer look

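In each group of 5 mice the gap between the most extreme mouse and its neighbour was divided by the range of the group, and a ratio above 0.71 was taken as standing apart. The 40 groups were looked at in CPM and in log2 CPM. Chance alone marks about 1 in 20 groups of normally distributed values, and the rate for the values here was not estimated. Sirt2-/-/CE replicate 20 stood apart as the highest of its group for Fasn (ratio 0.757, 856 CPM against 343 in the next mouse) and for Pnpla3 (ratio 0.967, 9.76 against 0.387 CPM). CE replicate 7 stood apart for Pnpla3 (ratio 0.829, 1.21 against 0.331 CPM). For Slc25a1, Control replicate 5 (ratio 0.733, 250.3 against 204 CPM) and Sirt2-/-/CE replicate 16 (ratio 0.796 in CPM and 0.76 in log2 CPM, 231 against 168 CPM) were the highest of their groups. Of all these, only Sirt2-/-/CE replicate 16 for Slc25a1 also stood apart in log2 CPM.

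For Me1, all 5 Sirt2-/- mice were below the Control mean and all 5 Sirt2-/-/CE mice were above the CE mean in log2 CPM (4 of 5 in CPM), and the genotype effects with and without cold differed by 0.60 on the log2 scale. It is given as a description only, because the interaction contains the comparison known when the genes were chosen.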

How the results depend on the processing

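No paired analysis was possible because the mice were numbered 1 to 20, so that no groups shared replicate numbers. The calls of the 10 genes between Sirt2-/- and Control, and in the interaction, are a description, since the choice of genes used that comparison. There, where 2 of the 10 and 139 of 15616 genes were called, 1 (Scd1) was called with no filter on low counts (35 of all genes), 4 (Scd1, Slc25a1, Fasn and Acaca) by limma voom (906 of all genes), and 0 with only these 2 groups in the fit (29 of all genes), with the clock score as a covariate, or without the 4 mice of low clock score (0 of all genes in both). Leaving out single mice gave 0 to 2, and 5 to 375 of all genes, with 0 without Control replicates 1, 2 or 3 or Sirt2-/- replicates 12, 14 or 15. In the interaction DESeq2 called 1 of the 10 (Scd1) and 41 of all genes, against 0 in edgeR. Of the other pathway genes, where 1 was called between Sirt2-/- and Control (0.89% of all genes), 2 were called with scaling by library size (2.68%) or with only these groups (0.195%), 4 with at least 10 counts in every library (1.7%) or with the current quasi-likelihood form of edgeR (1.66%), 5 by DESeq2 (3.89%), 8 by limma voom (5.8%), 0 with the clock covariate or without the 4 mice, and 0 to 4 when single mice were left out. Between CE and Control, where 0 were called, DESeq2 called 3, limma voom 5, and leaving out single mice gave 0 to 1.

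For Sirt2-/-/CE against CE, signs turned under limma voom to 0.079 for Scd1, -0.14 for Fasn, -0.25 for Acly, -0.072 for Elovl6, -0.72 for Thrsp, -0.012 for Srebf1 and -0.076 for Pnpla3, and with scaling by library size to 0.022 for Acaca and 0.020 for Slc25a1. Leaving out single mice spread these log2 fold changes from -0.38 to 0.27 for Scd1, -0.36 to 0.81 for Fasn, -0.26 to 0.056 for Acaca, -0.31 to 0.31 for Acly, -0.27 to 1.15 for Thrsp, -0.15 to 0.94 for Srebf1, -0.19 to 0.00096 for Slc25a1 and -0.45 to 3.40 for Pnpla3. For Sirt2-/-/CE against Sirt2-/-, Elovl6 turned to -0.082 under limma voom, and Pnpla3 ran from -0.11 to 3.37 when single mice were left out. For CE against Control, Me1 turned to -0.0042 with scaling by library size, to -0.064 under limma voom, and ran from -0.11 to 0.16 when single mice were left out, and Thrsp turned to 0.62 with the clock covariate. The correlation with Srebf1 ran from -0.023 to 0.19 for Me1 and from -0.24 to 0.031 for Slc25a1 when single mice were left out. The cause of these changes was not tested. Depth limits Pnpla3 alone among the 10 genes.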
